A study of Mus musculus with 16 samples.

Results

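This account concerns 10 genes of innate immune signalling in mouse cortex: the chemokines Ccl2, Ccl3, Ccl4, Ccl5 and Cxcl16, the cytokines Il1a, Il1b, Il18 and Tnf, and the receptor gene Tlr2. They were taken by gene symbol from a count table of 55385 genes, and each symbol matched 1 row. A low-count filter kept 17555 genes for testing, 8 of the 10 among them. Ccl2 and Tnf fell below the filter and are described by their counts.

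The study profiled poly-A RNA from the cortex of 16 mice at 9 months of age, with 2 females and 2 males in each of 4 genotypes. The groups were wild-type C57BL/6J (WT), Dp16, 5xFAD and the cross 5xFAD-Dp16. Dp16 mice carry a duplication of the part of mouse chromosome 16 homologous to the long arm of human chromosome 21 and are used to model Down syndrome. 5xFAD mice carry human transgenes with familial Alzheimer's disease mutations, driven by the neuronal Thy1 promoter, and deposit amyloid. The labels give no strain background for the mutant groups, list no treatment, and do not say whether the animals were littermates. The 4 groups allow the effect of the 5xFAD transgenes to be read on the normal and on the Dp16 background, and that of Dp16 with and without the transgenes. None of the 10 genes lies on chromosome 16.

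Chemokines are small secreted proteins that attract leukocytes through G-protein-coupled receptors. In the brain Ccl3, Ccl4, Il1a, Il1b and Tnf come mostly from microglia, the resident macrophages, and microglia around amyloid plaques are known to raise several of them. Tlr2 senses microbial lipoproteins and, in experimental work, aggregated amyloid, and signals through MyD88 to NF-kB, which drives transcription of many chemokine and cytokine genes. Interleukin-1 beta and interleukin-18 are made as inactive precursors that inflammasome caspases cut, so a transcript level does not give the active protein.

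The libraries held 16874481 to 22912168 counts, and levels are given below as CPM, counts scaled to a common library size after TMM normalization. Thy1 counts separated the transgene carriers from the rest, which had 1700 ± 200 CPM (5xFAD) and 2000 ± 168 CPM (5xFAD-Dp16; SD, n = 4), from WT at 810 ± 62.8 and Dp16 at 888 ± 120. App, which lies in the duplicated segment, was at 1320 ± 413 CPM in WT against 1870 ± 454 in Dp16, and without and with the duplication in carriers at 1140 ± 172 and 1980 ± 277 (SD, n = 4), with overlap between WT and Dp16. The labels name the libraries as separate samples and nothing more, so the p-values measure the spread between these samples.

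Among the members, 6 had a promoter in the RefSeq table for GRCm38.p6 (Ccl3, Il1a, Il1b, Tnf, Il18 and Tlr2). The 250 bases upstream of the RefSeq start are printed for Ccl3 and Tlr2, whose levels rose with the transgenes on both backgrounds, and for Il18, whose level did not. The windows are chr11:83649379-83649628 (minus strand), chr3:83841609-83841858 (minus strand) and chr9:50554450-50554699 (plus strand), each written 5′ to 3′ in the direction of transcription. Part of the Tlr2 window lies inside the gene as annotated below, which runs to chr3:83841767, beyond the RefSeq start. Capitals mark the core GAGGAA, or TTCCTC where it lies on the other strand, which is the centre of sites bound by ETS factors such as the myeloid factor PU.1. The windows of Tlr2 and Il18 hold no match and so no capitals.
Ccl3: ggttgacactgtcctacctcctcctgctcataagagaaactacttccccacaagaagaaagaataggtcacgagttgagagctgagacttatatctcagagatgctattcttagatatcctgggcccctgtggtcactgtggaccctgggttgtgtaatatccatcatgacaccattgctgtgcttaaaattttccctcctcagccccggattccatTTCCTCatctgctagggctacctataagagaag
Tlr2: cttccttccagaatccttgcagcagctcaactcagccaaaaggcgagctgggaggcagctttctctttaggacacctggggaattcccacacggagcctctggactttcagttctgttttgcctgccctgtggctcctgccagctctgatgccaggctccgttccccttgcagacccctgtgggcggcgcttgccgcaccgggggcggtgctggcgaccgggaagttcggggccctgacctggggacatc
Il18: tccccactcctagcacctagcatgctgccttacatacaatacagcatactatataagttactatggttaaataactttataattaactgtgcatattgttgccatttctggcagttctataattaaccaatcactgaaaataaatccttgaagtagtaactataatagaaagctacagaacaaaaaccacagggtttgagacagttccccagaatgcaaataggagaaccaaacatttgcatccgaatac
The ETS core was present on either strand in 3 of the 6 member windows, against 23.3% of the 32851 windows of the table. It began at position -33 for Ccl3, -41 for Il1a and -117 for Tnf, counted back from the start. A strict NF-kB motif, GGGANTTTCC, was in 0 of the 6 windows and in 0.356% of all windows on either strand. Looser forms of this motif were not counted, and the Tlr2 window holds a near match, gggaattccc. The 0 therefore does not show that the windows lack NF-kB-type sites. These are letter matches in a short window and say nothing on whether a factor was bound.

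In 5xFAD cortex 4 of the 8 tested members rose against WT: the chemokines Ccl3, Ccl4 and Cxcl16, and the receptor Tlr2. Ccl3 rose the most, to a fitted 49-fold over WT. Ccl5, Il1a and Il1b were higher on average but did not pass the test, and Il18 was level. On the Dp16 background Ccl3, Ccl4 and Tlr2 rose as well. No member passed a test between Dp16 and WT, or between 5xFAD-Dp16 and 5xFAD. Over all genes, 1.5% were called higher in 5xFAD than in WT, and 0.387% were called higher in 5xFAD-Dp16 than in Dp16. The 5xFAD libraries all lay above all WT libraries for 6 of the 8 members, which held for 3.67% of tested genes, and on the Dp16 background this was so for 4 members and 2.21% of genes. The median log2 change of the 8 members was 2.31 in the first comparison, where that of all genes was -0.06, and 1.36 in the second. Ccl3, Ccl4 and Ccl5 had few counts in non-carriers and passed the low-count filter through the carrier libraries. Il1b, with 5 to 27 counts per non-carrier library, also needed carrier libraries to pass it. Ccl2 and Tnf, scarce in all groups, did not pass it. The shares and medians of the tested members, here and in the later 5xFAD comparisons, can be raised by this, to an extent not measured.

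**Figure D1:**
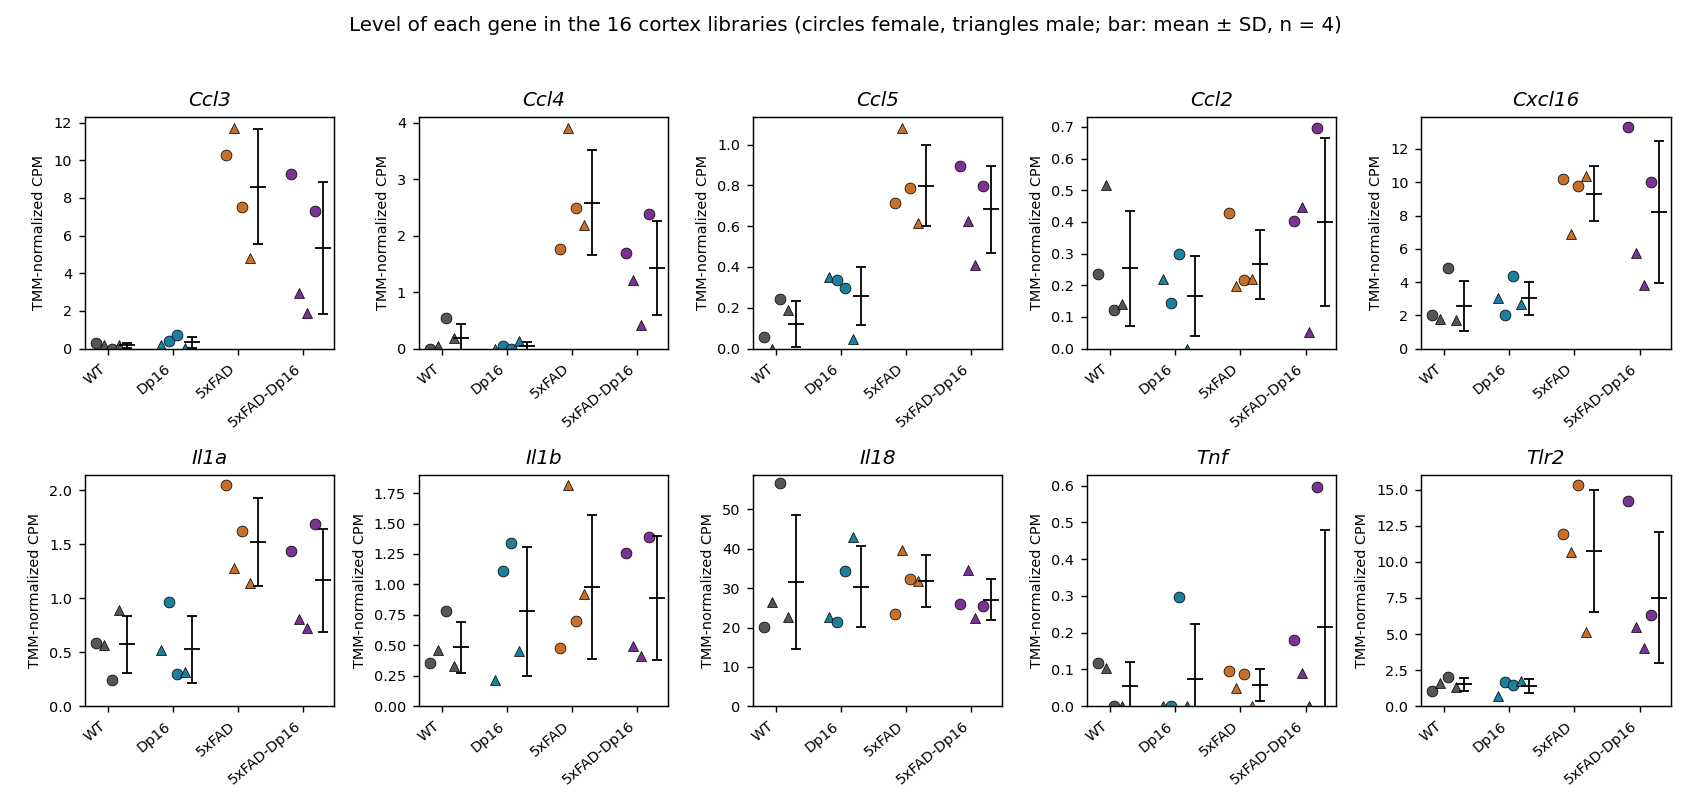
TMM-normalized CPM of each of the 10 genes (y axis, linear, each panel with its own scale) in the 16 libraries by genotype group (x axis). Circles are females, triangles are males, and the bar gives mean ± SD (n = 4). All 8 transgene carriers lie above the 8 other libraries for Ccl3, Ccl5 and Tlr2, and the groups overlap for Il1b and Il18.

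Ccl3 encodes macrophage inflammatory protein 1 alpha, a chemokine that attracts monocytes and other leukocytes. Its gene lies at chr11:83647844-83649355 on the minus strand of GRCm38. The WT libraries held 5, 4, 0 and 4 counts and the Dp16 libraries 4, 8, 15 and 1. The 5xFAD libraries held 216, 238, 172 and 110 counts, and the 5xFAD-Dp16 libraries 207, 66, 37 and 147. Every carrier stood above every non-carrier, and the 2 lowest carriers were both 5xFAD-Dp16 males. Mean CPM was 0.172 ± 0.124 (WT), 0.338 ± 0.305 (Dp16), 8.59 ± 3.06 (5xFAD) and 5.36 ± 3.51 (5xFAD-Dp16; SD, n = 4). WT and Dp16 overlapped, as did the 2 carrier groups, with a gap only between Dp16 and 5xFAD-Dp16. The log2 fold change was 5.62 ± 0.65 (SE) for 5xFAD against WT, with an adjusted p of 0.000264 by edgeR's quasi-likelihood test with Benjamini-Hochberg adjustment. It was 3.95 ± 0.58 on the Dp16 background (adjusted p = 0.00554 by the same edgeR test).

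Ccl4 encodes macrophage inflammatory protein 1 beta, a close relative of the Ccl3 product, from a gene beside Ccl3 at chr11:83662584-83664683 on the plus strand. Its counts were 0, 1, 9 and 4 in WT and 0, 1, 0 and 3 in Dp16. They were 37, 79, 57 and 50 in 5xFAD and 38, 27, 8 and 48 in 5xFAD-Dp16. The lowest carrier, a 5xFAD-Dp16 male at 0.411 CPM, lay below the highest WT library at 0.543 CPM, and all other carriers were above every non-carrier. Mean CPM was 0.196 ± 0.245 (WT), 0.0462 ± 0.0645 (Dp16), 2.59 ± 0.923 (5xFAD) and 1.43 ± 0.832 (5xFAD-Dp16; SD, n = 4). The log2 fold change was 3.77 ± 0.80 (SE) against WT and 4.69 ± 0.94 against Dp16, with adjusted p of 0.0238 and 0.0414 by edgeR's quasi-likelihood test. The larger of these values rests on a Dp16 group with 4 counts in all. Both calls were close to the threshold: that against WT was lost when only the 2 groups were fitted (adjusted p = 0.119) and without any 1 of 5xFAD replicates 2, 3 and 4 or WT replicates 1, 2 and 4 (up to 0.11). The call against Dp16 was lost with the replicate number as a block (0.065) and without any 1 of 12 libraries (up to 0.225); it held without WT replicate 1 or 3, Dp16 replicate 4 or 5xFAD-Dp16 replicate 3.

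Ccl5, also called RANTES, is a leukocyte-attracting chemokine best known from T cells and macrophages. It lies at chr11:83525778-83530518 on the minus strand. It was scarce in every group, with 1, 0, 4 and 4 counts in WT, 8, 7, 6 and 1 in Dp16, 15, 22, 18 and 14 in 5xFAD, and 20, 14, 8 and 16 in 5xFAD-Dp16. In CPM every carrier, at 0.411 or more, stood above every non-carrier, at 0.35 or less. The log2 fold change of 2.68 ± 0.69 (SE) against WT did not pass the edgeR test (adjusted p = 0.0779, 95% interval 1.22 to 4.15), nor did that of 1.38 ± 0.62 against Dp16 (adjusted p = 0.98). DESeq2 called Ccl5 in 5xFAD against WT (adjusted p = 0.0111). A list of 11 T and NK cell markers summed to 28.4 to 41.3 CPM in WT, 32.4 to 36.6 in Dp16, 23.4 to 34.7 in 5xFAD and 27.3 to 39.3 in 5xFAD-Dp16. Only 2 of them passed the low-count filter, and 0 were called in 5xFAD against WT (0 at an unadjusted p under 0.05 in edgeR, 0 called in DESeq2). Their part in the Ccl5 level was not tested.

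Cxcl16 is a chemokine made as a membrane-bound protein that also acts as a scavenger receptor, and its soluble form is a ligand of Cxcr6. The gene lies at chr11:70453983-70459984 on the minus strand. Its level was 2, 1.76, 4.83 and 1.69 CPM in WT and 3.02, 2.02, 4.37 and 2.69 in Dp16. It was 10.2, 6.9, 9.78 and 10.4 CPM in 5xFAD and 13.3, 5.77, 3.81 and 10 in 5xFAD-Dp16. The 5xFAD libraries all lay above both non-carrier groups, while 1 5xFAD-Dp16 male fell among the non-carriers. Cxcl16 rose by 1.94 ± 0.34 (SE) on the log2 scale against WT (adjusted p = 0.00602, edgeR's quasi-likelihood test), a call lost when only these 2 groups were fitted (0.0565). Against Dp16 the difference was 1.33 ± 0.34 and did not pass (adjusted p = 0.167, 95% interval 0.615 to 2.05), though it was called by DESeq2 (adjusted p = 0.0213) and without WT replicate 3, the WT library with the most Cxcl16 (0.0386). The gene shares 18.3% of its exon bases with Zmynd15 on the other strand, which held 0 to 36 counts per library, so a small part of its count is uncertain.

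Ccl2, the ligand of Ccr2 and the main monocyte-attracting chemokine, was near the detection limit. Its gene lies at chr11:82035571-82037453 on the plus strand, and its counts were 4, 10, 2 and 3 in WT and 5, 3, 6 and 0 in Dp16. They were 9, 4, 5 and 5 in 5xFAD and 9, 10, 1 and 14 in 5xFAD-Dp16. All groups overlapped. Summed counts were 23 in 5xFAD against 19 in WT, a depth-scaled ratio of 1.03 with a 95% interval of 0.538 to 2.01 from counting error alone (exact permutation test over libraries, two-sided, p = 0.743). The 5xFAD-Dp16 sum of 34 against 14 in Dp16 gave a ratio of 2.47 (1.29 to 4.99, counting error only), and the exact permutation p was 0.2. With 4 libraries against 4, the smallest two-sided p this test allows is 0.0286.

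Tlr2, the pattern recognition receptor described above, was the only Toll-like receptor among the 10. It lies at chr3:83836272-83841767 on the minus strand. Its level was 1.06, 1.6, 2.05 and 1.32 CPM in WT and 0.744, 1.69, 1.44 and 1.78 in Dp16. It was 11.9, 10.7, 15.3 and 5.14 CPM in 5xFAD and 14.2, 5.5, 4.06 and 6.31 in 5xFAD-Dp16. Carriers and non-carriers did not overlap: the lowest carrier was at 4.06 CPM and the highest other library at 2.05. Tlr2 rose by 2.77 ± 0.38 (SE) on the log2 scale against WT, with an adjusted p of 0.000841 by edgeR's quasi-likelihood test. On the Dp16 background it rose by 2.34 ± 0.37 (adjusted p = 0.00893, edgeR). The second call was lost without Dp16 replicate 2 (0.0653) or Dp16 replicate 3 (0.0578).

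**Figure D2:**
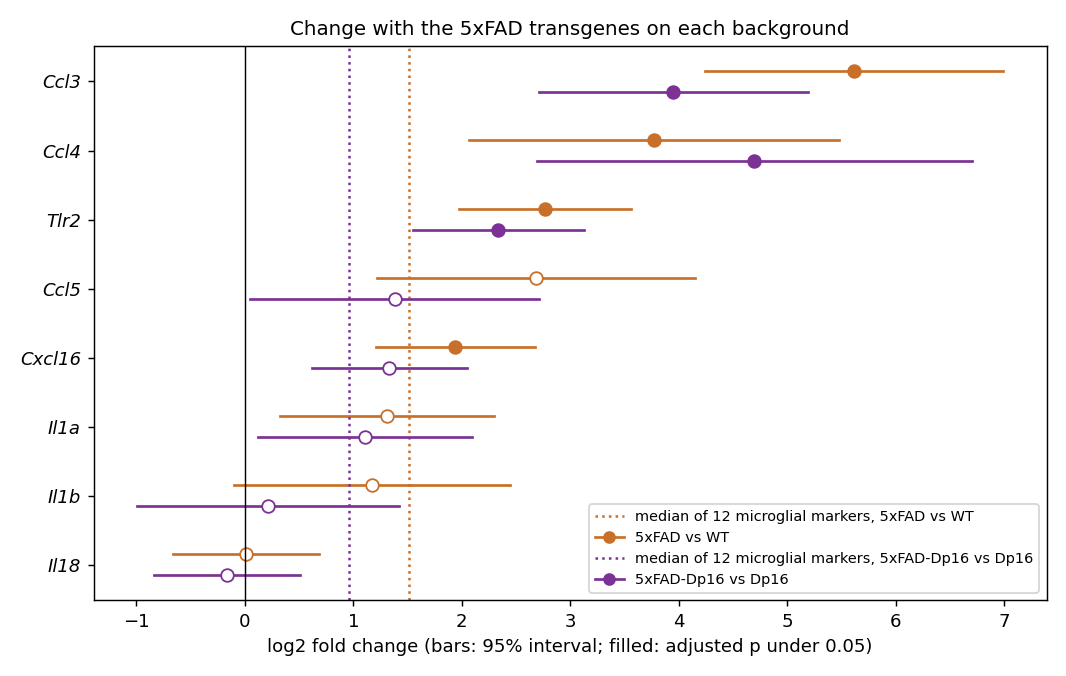
Log2 fold change of the 8 tested genes (x axis) with its 95% interval for 5xFAD against WT (orange) and for 5xFAD-Dp16 against Dp16 (purple). Filled points have an adjusted p under 0.05, and dotted lines give the median change of 12 microglial markers, at 1.51 and 0.957. Ccl3, Ccl4 and Tlr2 lie to the right of both lines with their whole intervals, and both Il18 intervals cover 0.

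Il1a encodes interleukin-1 alpha, an alarmin active without inflammasome cleavage, from chr2:129299610-129309972 on the minus strand. Counts were 10, 11, 4 and 19 in WT, 12, 20, 6 and 7 in Dp16, 43, 26, 37 and 26 in 5xFAD, and 32, 18, 14 and 34 in 5xFAD-Dp16. In CPM the 5xFAD libraries, at 1.14 to 2.05, lay above all WT libraries, at 0.241 to 0.893. The difference of 1.31 ± 0.47 (SE) on the log2 scale did not pass the edgeR test over all genes (adjusted p = 0.359, 95% interval 0.323 to 2.3). Against Dp16 it was 1.11 ± 0.46, with an adjusted p of 0.98 in edgeR's test. The antisense-side gene Gm14023 shares 11.2% of the Il1a exon bases, at 0 to 17 counts per library.

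Il1b encodes interleukin-1 beta, which Caspase-1 must cleave before it is active, and lies at chr2:129364570-129371139 on the minus strand. Its level was 0.353, 0.465, 0.785 and 0.329 CPM in WT and 0.219, 1.11, 1.34 and 0.456 in Dp16. It was 0.476, 1.82, 0.698 and 0.922 CPM in 5xFAD and 1.26, 0.492, 0.411 and 1.39 in 5xFAD-Dp16. All 4 groups overlapped, with a wide spread in each. The log2 difference was 1.17 ± 0.60 (SE) against WT (95% interval -0.0993 to 2.44; adjusted p = 0.763, edgeR) and 0.21 ± 0.57 against Dp16 (-0.995 to 1.42; 0.98). The value against WT fell to 0.55 without 5xFAD replicate 2, the library with the most Il1b. The antisense transcript Il1bos shares 1.3% of the exon bases.

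Tnf, the tumour necrosis factor gene at chr17:35199381-35202007, was close to the detection limit. WT libraries held 2, 2, 0 and 0 counts, Dp16 libraries 0, 0, 6 and 0, 5xFAD libraries 2, 1, 2 and 0, and 5xFAD-Dp16 libraries 4, 2, 0 and 12. The 12 counts of 1 female made up most of the last group. The 5xFAD sum of 5 stood against 4 in WT, a ratio of 1.07 (95% interval 0.23 to 5.38, counting error only; exact permutation p = 1). The 5xFAD-Dp16 sum of 18 stood against 6 in Dp16, a ratio of 3.05 (1.16 to 9.4; exact permutation p = 0.371). The fitted ratio of Ccl3 in 5xFAD against WT lay outside the first interval. That interval leaves out the spread between animals, so it sets no bound on a difference in Tnf. Counting error alone already leaves the ratios inside it open at this depth.

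Il18 encodes interleukin-18, which acts through Il18r1 and Il18rap and induces interferon gamma in lymphocytes. It was by far the most abundant member per length, at 28.9 ± 12.4 RPKM (counts scaled for depth and gene length) in WT, where the next, Cxcl16, was at 0.896 ± 0.427 RPKM (SD, n = 4). In 5xFAD Il18 stood at 31.1 ± 5.97 RPKM and Ccl3 was second at 11.3 ± 3.92 RPKM, ahead of Ccl4 at 3.93 ± 1.32, Tlr2 at 3.59 ± 1.39 and Cxcl16 at 3.5 ± 0.673 RPKM. Its gene lies at chr9:50554827-50581840 on the plus strand. Il18 levels were 20.2, 26.5, 56.7 and 22.7 CPM in WT, 22.6, 21.5, 34.4 and 43.1 in Dp16, 23.5, 39.8, 32.3 and 31.7 in 5xFAD, and 26, 34.6, 22.3 and 25.5 in 5xFAD-Dp16. The ranges of all 4 groups overlapped. The log2 difference was 0.01 ± 0.32 (SE) against WT (95% interval -0.663 to 0.686; adjusted p = 0.999, edgeR) and -0.16 ± 0.31 against Dp16 (-0.834 to 0.505; 0.98).

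The spread of Il18 within groups went with a property of whole libraries. The length slope of a library is how its CPM, relative to the mean over libraries, changes with gene length, and it ran from -0.439 to 0.281 (log2 CPM per log2 length). The 5 libraries with the most Il18 were the 5 with the lowest slope, led by WT replicate 3 at 56.7 CPM. Among the other members at most 2 of the 5 highest libraries were of that kind. Without WT replicate 3, Il18 in 5xFAD stood 0.50 above WT on the log2 scale. In a separate fit of all 16 libraries with the slope as a covariate, it stood 0.17 ± 0.12 above WT (SE; adjusted p = 0.478, edgeR). In the fit with this covariate Ccl3, Ccl4, Cxcl16 and Tlr2 stayed called in 5xFAD against WT, at 5.62 ± 0.59, 4.28 ± 0.65, 2.03 ± 0.27 and 2.82 ± 0.32. The part of the slope in the level of Il18 was not tested beyond these values.

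**Figure D3:**
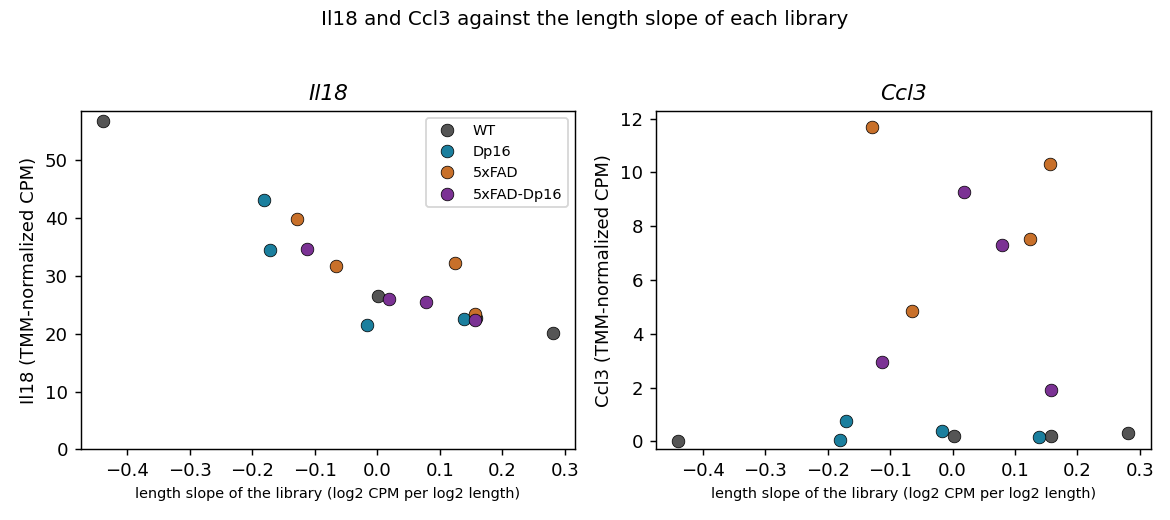
TMM-normalized CPM of Il18 (left) and Ccl3 (right) against the length slope of each of the 16 libraries (x axis, log2 CPM per log2 length), coloured by genotype group. Il18 is highest, at 56.7 CPM, in the WT library of lowest slope, whereas high Ccl3 is found at low and high slopes and only among transgene carriers.

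Over both backgrounds together, carriers of the 5xFAD transgenes differed from non-carriers in 5 of the 8 tested members, all higher, where 2.18% of all genes were called higher. All 8 carriers stood above all 8 non-carriers for 3 members, Ccl3, Ccl5 and Tlr2, and for 0.826% of tested genes. Ccl3 rose by 4.78 ± 0.44 (SE) on the log2 scale, Ccl4 by 4.23 ± 0.61, Tlr2 by 2.55 ± 0.26, Ccl5 by 2.03 ± 0.47 and Cxcl16 by 1.64 ± 0.24, with adjusted p of 1.29e-05, 0.000678, 3.92e-05, 0.0271 and 0.00073 by edgeR's quasi-likelihood test. Il1a was 1.21 ± 0.33 higher (adjusted p = 0.0829, 95% interval 0.509 to 1.91). Il1b was 0.69 ± 0.41 higher (0.693; -0.186 to 1.57) and Il18 0.08 lower (value -0.08 ± 0.22; 0.956; -0.551 to 0.398). The Ccl5 call was lost without the 3 libraries of lowest length slope (0.0638) and with the replicate number as a block (0.0794). It was also lost without any 1 of 8 libraries (up to 0.077): 5xFAD replicates 2 and 3, 5xFAD-Dp16 replicates 1, 2 and 4, Dp16 replicates 2 and 3, and WT replicate 1. Il1a was called by DESeq2 (0.0192).

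The duplication by itself was not seen to move these genes. Against WT, 0 of the 8 tested members passed edgeR's test in Dp16, and 0 had an unadjusted p under 0.05 in edgeR or DESeq2. Over all genes 0.0057% were called, and 2.2% had an unadjusted p under 0.05. The member differences ran from -1.87 ± 1.08 (SE) for Ccl4, with a 95% interval of -4.18 to 0.436, to 1.03 ± 0.73 for Ccl5, with an interval of -0.512 to 2.58. For the members with more counts the intervals were narrower: -0.728 to 0.618 for Il18, -0.414 to 1.05 for Cxcl16 and -0.928 to 0.698 for Tlr2. None of these intervals shows that the levels are equal.

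Within transgene carriers all 8 tested members had a lower fitted level in 5xFAD-Dp16 than in 5xFAD, with a median of -0.40 on the log2 scale. Over all genes, 50.9% had a higher one. None of the 8 members passed edgeR's test, 0 had an unadjusted p under 0.05 (1 in DESeq2, which called 0), where 0.0057% of all genes were called and 3.59% had an unadjusted p under 0.05. The differences were -0.92 ± 0.48 (SE) for Ccl3 (95% interval -1.95 to 0.0986), -0.95 ± 0.68 for Ccl4 (-2.39 to 0.487), -0.54 ± 0.34 for Tlr2 (-1.26 to 0.177) and -0.29 ± 0.32 for Cxcl16 (-0.984 to 0.396). In males the mean CPM of each tested member was lower in 5xFAD-Dp16 than in 5xFAD. In females those of Ccl5, Cxcl16 and Il1b were higher and the rest lower. Mean Ccl3 was 8.28 (5xFAD) and 2.43 CPM (5xFAD-Dp16) in males, and 8.9 and 8.29 in females. For Cxcl16 these means were 8.68 and 4.79 in males, and 10 and 11.7 in females. Whether the difference depends on sex was not tested. Without 5xFAD replicate 2, the library with the most Ccl3, Ccl4, Ccl5 and Il1b in its group, the sign of Ccl5 and Il1b turned. Ccl2 and Tnf, below the filter, went the other way. Summed counts in 5xFAD-Dp16 against 5xFAD were 34 and 23 for Ccl2, a ratio of 1.53 (95% interval 0.873 to 2.71, counting error only). For Tnf they were 18 and 5, a ratio of 3.72 (1.33 to 12.8). Exact permutation tests over libraries gave p of 0.514 and 0.314. Of 12 microglial and pan-myeloid markers, described further on, 0 were above 0 and 0 were called in edgeR in the same comparison, with 9 at an unadjusted p under 0.05 and a median of -0.54. Their part in the members' differences was not tested. A test of whether the 5xFAD effect differs between the backgrounds called 0 members in edgeR and 0 in DESeq2 (0 and 1 at an unadjusted p under 0.05), where over all genes 0 were called and 1.36% had such a p. For Ccl3 that difference was -1.67 ± 0.89 (SE; 95% interval -3.56 to 0.218; unadjusted p = 0.079, adjusted p = 1, edgeR), and for Ccl4 it was 0.92 ± 1.21 (-1.67 to 3.5).

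Against WT, the animals with both alterations showed Ccl3 higher by 4.69 ± 0.65 (SE) on the log2 scale, Tlr2 by 2.22 ± 0.37 and Cxcl16 by 1.65 ± 0.34. Adjusted p in edgeR's test were 0.00246, 0.0105 and 0.0424, in a comparison where 0.496% of all genes were called higher. All 3 calls were lost when only these 2 groups were fitted, at 0.0656, 0.143 and 0.201. Cxcl16 was also lost in 3 other fits and without any 1 of 12 libraries (0.0536 to 0.199), holding only without WT replicate 3, Dp16 replicate 2, 5xFAD replicate 4 or 5xFAD-Dp16 replicate 3, and Tlr2 was lost without WT replicate 1 (0.058). This comparison and that of 5xFAD with WT share the WT libraries. Averaged over both transgene states, Dp16 carriers had 0 members called in edgeR and DESeq2, where 0.0968% of all genes were called, and 1 member, Ccl4, had an unadjusted p under 0.05, as did 4.29% of all genes. Its difference was -1.41 ± 0.64 (SE; unadjusted p = 0.042, adjusted p = 1, edgeR).

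In bulk tissue, more cells of a type and more RNA per cell cannot be told apart. A list of 12 microglial and pan-myeloid markers, with Csf1r, C1qa, Cx3cr1, Tmem119, P2ry12, Aif1 and Tyrobp among them, moved with the members. Of the 12, 9 were called higher in 5xFAD than in WT, 4 in 5xFAD-Dp16 than in Dp16 and all 12 in carriers against non-carriers. Their summed level was 650 to 899 CPM in WT, 626 to 741 in Dp16, 2000 to 2820 in 5xFAD and 1000 to 2030 in 5xFAD-Dp16. Member counts were therefore also set against the summed counts of these markers in the same library.

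Per 1000 microglial marker counts, Ccl3 stood at 0.246 ± 0.18 (WT), 0.503 ± 0.448 (Dp16), 3.77 ± 1.5 (5xFAD) and 3.27 ± 1.38 (5xFAD-Dp16; SD, n = 4). Tlr2 was 1.99 ± 0.453, 2.06 ± 0.603, 4.54 ± 1.32 and 4.75 ± 1.51 in the same order. For both genes all 8 carriers stayed above all 8 other libraries, with Tlr2 the closer of the pair at 2.57 for the lowest carrier and 2.52 for the highest non-carrier. Ccl4 was 0.232 ± 0.268, 0.0641 ± 0.0871, 1.15 ± 0.486 and 0.898 ± 0.412, with 1 5xFAD-Dp16 male below 1 WT female. Ccl5, whose carriers all stood above the other libraries in CPM, was 0.149 ± 0.128, 0.391 ± 0.225, 0.352 ± 0.109 and 0.451 ± 0.0317. Both carrier groups lay within its Dp16 range of 0.0615 to 0.559. Il1b was 0.63 ± 0.203, 1.15 ± 0.788, 0.444 ± 0.301 and 0.558 ± 0.208, with carriers and non-carriers overlapping. Cxcl16 was 3.28 ± 1.42, 4.48 ± 1.5, 4.09 ± 0.906 and 5.18 ± 1.28, and Il1a 0.786 ± 0.372, 0.787 ± 0.476, 0.658 ± 0.151 and 0.762 ± 0.166, so that their groups overlapped throughout. Il18 was 40.6 ± 15.9, 44.3 ± 12.2, 14.1 ± 4.01 and 19.2 ± 6.36, with all carriers at 26.6 or less and all others at 29.1 or more. In CPM no change of Il18 was called, so its lower ratio in carriers follows from the higher marker counts. Whether Il18 counts came from microglia was not measured. On this scale the 2 carrier groups were close for Ccl3 and Tlr2. These ratios are descriptions and were not tested.

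**Figure D4:**
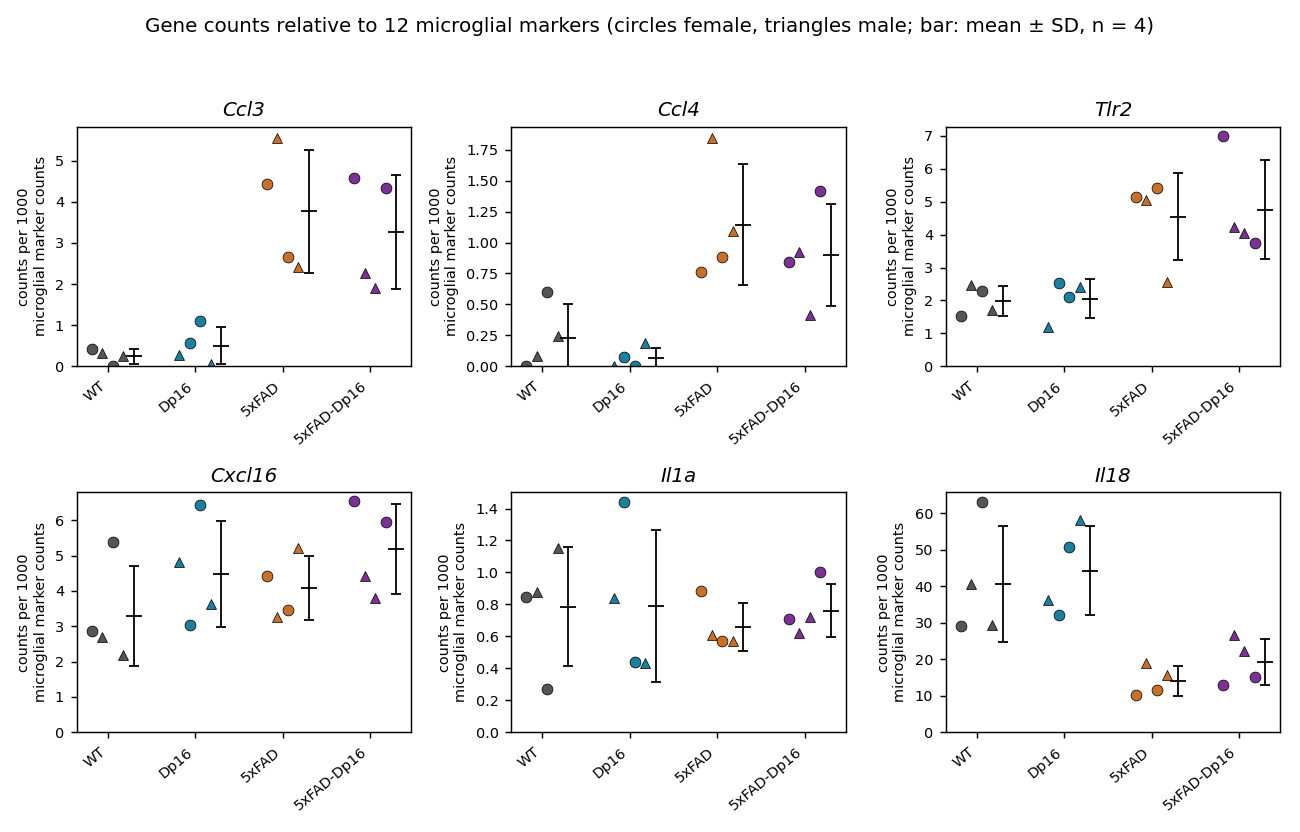
Counts of 6 of the genes per 1000 counts of 12 microglial markers in the same library (y axis, linear), by genotype group (x axis). Circles are females, triangles are males, and the bar gives mean ± SD (n = 4). Carriers lie above non-carriers for Ccl3 and Tlr2, overlap them for Cxcl16 and Il1a, and lie below them for Il18. No change of Il18 was called in CPM, and its lower ratio follows from the higher marker counts of carriers.

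Lists of markers of other cell types were measured in the same libraries. Of 8 neutrophil markers 3 could be tested and 0 were called in 5xFAD against WT (0 at an unadjusted p under 0.05 in edgeR, 0 called in DESeq2). Their sum stayed between 0.381 and 4.93 CPM over all libraries, with Ly6g at 0 in the Dp16, 5xFAD and 5xFAD-Dp16 libraries. Of 7 border macrophage and monocyte markers 6 could be tested and 0 were called in 5xFAD against WT (1 at an unadjusted p under 0.05 in edgeR, 0 called in DESeq2), while their sum was 3.88 to 6.94 CPM in WT and 6.21 to 7.64 in 5xFAD. In carriers against non-carriers 1 of them, the monocyte gene Ly6c2, rose by 2.35 ± 0.58 (SE) on the log2 scale from means of 0.0629 CPM in WT and 0.0958 in Dp16 (adjusted p = 0.0475, edgeR). Its part in the chemokine levels was not tested. Of 5 astrocyte markers 2 were called higher in 5xFAD than in WT. None of 4 oligodendrocyte, 4 endothelial and 5 choroid plexus markers had an unadjusted p under 0.05 in edgeR in that comparison or was called by DESeq2. In 5xFAD-Dp16 all 5 choroid plexus markers had fitted changes above 0, with a median of 2.67 on the log2 scale against 5xFAD (1 at an unadjusted p under 0.05) and 2.14 against WT (2 of 5), and its median was 1.66 in Dp16 carriers against non-carriers (3 of 5). In these 3 comparisons 0 of the 5 were called in edgeR, and their part in the members' levels was not tested. Of 6 neuron markers 0 were called in 5xFAD against WT by either tool, with 2 at an unadjusted p under 0.05 in edgeR.

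Other genes of the same pathways moved in part. Of 28 other chemokine ligands 15 could be tested and 2 rose in 5xFAD against WT. Ccl6, a myeloid chemokine, went from 4.65 ± 2.16 to 62.4 ± 20.5 CPM (SD, n = 4), a log2 change of 3.75 ± 0.52 (SE), and Cxcl10, an interferon-induced ligand of Cxcr3, from 0.322 ± 0.145 to 3.04 ± 1.16 CPM, a change of 3.30 ± 0.51. Both also rose on the Dp16 background, by 2.71 ± 0.50 and 2.77 ± 0.49. The adjusted p of these 4 values were 0.000952, 0.00209, 0.0231 and 0.0175 by edgeR's quasi-likelihood test. The median of the 15 ligands was 0.14, against 2.31 for the members. Members and lists were chosen with earlier results of these data known, so this contrast may reflect the choice and was not tested.

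Of 23 chemokine receptors 8 were tested and 1 rose in 5xFAD, the microglial fractalkine receptor Cx3cr1, by 1.23 ± 0.23 (SE) on the log2 scale (adjusted p = 0.0091, edgeR). Among 25 Toll-like receptors, co-receptors and adaptors 22 were tested and 4 rose. They were the lipopolysaccharide co-receptor Cd14 by 2.06, the endosomal nucleic acid sensors Tlr13 by 1.87 and Tlr7 by 1.73, and Unc93b1, the chaperone of endosomal Toll-like receptors, by 1.13, with adjusted p of 0.00144, 0.00204, 0.00188 and 0.0259 in edgeR. Of these Cd14 and Tlr13 also rose in 5xFAD-Dp16 against Dp16, by 1.55 ± 0.29 and 1.78 ± 0.29 (adjusted p = 0.0299 and 0.00952, edgeR). The list's median change in 5xFAD was 0.54, with 21 of 22 above 0.

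Further lists covered genes downstream of or beside the cytokines. Of 12 receptors, inhibitors and sheddases of the interleukin-1, interleukin-18 and TNF systems 9 were tested and 0 were called in 5xFAD against WT (3 at an unadjusted p under 0.05 in edgeR, 2 called by DESeq2). Smallest in p was the TNF receptor Tnfrsf1a, at 1.00 ± 0.26 (SE; adjusted p = 0.079), followed by the TNF sheddase Adam17 at 0.62 ± 0.17 (0.111). Of 17 NF-kB subunits and regulators 0 were called (2 at an unadjusted p under 0.05, 0 called by DESeq2), among them the atypical inhibitor Bcl3 at 2.20 ± 0.77 (0.341) and the kinase Ikbkb at 0.32 ± 0.14 (0.579). Of 8 inflammasome genes 7 were tested and 0 were called in edgeR (4 at an unadjusted p under 0.05), 1 was called by DESeq2 and 4 in the fit that holds the length slope. The adaptor Pycard stood 1.31 ± 0.37 higher (0.132) and Casp4 1.88 ± 0.67 (0.364). Of 24 other cytokines 11 were tested and 1 rose, Il16, a ligand of CD4, by 1.32 with an adjusted p of 0.0135 in edgeR. Among 9 immediate early genes, which respond to dissection and stress, 0 were called in 5xFAD against WT (1 at an unadjusted p under 0.05, 1 called by DESeq2).

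Levels within 5xFAD-Dp16 showed an order by sex that was noticed after the values were seen. In that group both females stood above both males in CPM for 8 of the 10 members, all but Ccl2 and Il18, and the same held for 16.4% of all tested genes and for 11 of the 12 microglial markers. For Ccl3 the females were at 9.28 and 7.3 CPM and the males at 2.95 and 1.9, and for Cxcl16 at 13.3 and 10 against 5.77 and 3.81. In 5xFAD the order held for 3 of 10 members and 29.3% of tested genes, in Dp16 for 2 and 9.43%, and in WT for 1 and 7.01%. For Il1b in 5xFAD both males stood above both females, as for 30.1% of tested genes. Tnf, among the 3 members in 5xFAD and the 8 in 5xFAD-Dp16, was close to the detection limit. Of the 12 microglial markers 8 had both females above both males in 5xFAD, 1 in Dp16 and 0 in WT. With 2 animals of each sex this order was not tested within the group. A test of whether the 5xFAD effect, averaged over Dp16 status, differs between females and males called 0 of 8 members (0 at an unadjusted p under 0.05 in edgeR, 0 called in DESeq2), where 0 of all genes were called and 4.57% had an unadjusted p under 0.05. The differences named by the smallest p were -1.02 ± 0.62 (SE; 95% interval -2.36 to 0.327) for Il1b and 0.93 ± 0.63 (-0.429 to 2.29) for Il1a, both with an adjusted p of 0.634 in edgeR's test.

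For the members with a mean of at least 1 CPM, the 3 genes with the most similar pattern over the 16 libraries were listed by the Pearson correlation of log2 CPM. Ccl3 was followed by the lysosomal macrophage gene Cd68 (r = 0.976), Naip2 (0.973) and the integrin gene Itgax (0.968). Ccl4 was followed by Ly86 (0.973), the lipid receptor gene Trem2 (0.966) and C1qb (0.965). Tlr2 was followed by the protease gene Ctsd (0.984), Itgax (0.972) and C1qa (0.969), and Cxcl16 by Cd52 (0.961), Fcer1g (0.957) and Bst2 (0.941). All of these differ between the groups, and the points share the genotype split. Il18 had other neighbours, the serine synthesis gene Psat1 (0.967), the helicase gene Ddx39 (0.966) and the ribosomal gene Rpsa (0.963). Their log2 differences in 5xFAD against WT were 0.03, 0.01 and 0.05, like that of Il18.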

How the data were processed

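RNA was measured in 16 cortex libraries, 4 per genotype. TRIzol extraction, poly-A selection, a strand-specific kit and paired-end sequencing are given per the labels' protocols. Per the submitters' processing notes, the tools were HISAT2 2.1.0 and HTSeq 0.6.1 (with SAMtools 1.5, FastQC 0.11.5 and bcl2fastq) on build GRCm38; settings and the use of strand in counting are not given in the sources used here. The authors deposited raw read counts per gene and, in a second table, RPKM values, which are the same counts divided by gene length and library total. The counts were tested with edgeR 4.0.16 (R 4.3.3): TMM scaling, low-count filter with a minimum count of 10, quasi-likelihood fit of all 16 libraries on genotype and sex, Benjamini-Hochberg over the 17555 genes tested, threshold 0.05. Fold changes are log2 with SE. The edgeR SE was worked back as the absolute log2 change over the square root of the test's F statistic. The 95% intervals of edgeR fold changes were built from this SE, so both are approximate. Ccl2 and Tnf, below the filter, were tested by exact permutation of log2(CPM + 0.5), and their summed counts compared with an exact 95% interval that covers counting error only. Alternatives were DESeq2 1.42.0, limma-trend 3.58.1 on log2(RPKM + 0.1) or log2(RPKM + 1), RLE scaling, no filter, no sex term, a replicate block, the length slope as a covariate, the 2 groups alone, and leaving out libraries. The fit was also run on simulated counts, with changes planted only in genes of higher counts. That run does not cover genes scarce in non-carriers, such as Ccl3, Ccl4 and Ccl5. Sequences came from RefSeq tables of GRCm38.p6, and coordinates and overlaps from a GENCODE annotation of GRCm38. Named genes were all 10 members, for each pathway list up to 4 called genes of smallest p in 5xFAD against WT or else the 2 of smallest p, and the 3 genes of most similar pattern; Ly6c2 and Ly6g were named in addition after their values were seen. Some listed genes are not reported here. Members and lists were chosen with earlier results of these data known. No 2 libraries agreed within sampling noise (chi-square per degree of freedom 16.4 to 279).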

Additional observations from a re-analysis of the deposited data

Results flagged for a closer look

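Within the 40 groups of 4 libraries (10 genes in 4 genotypes), 3 held a library far from the other 3. Chance gives about 1 in 20 where values are normally distributed. Cxcl16 was 4.83 CPM in WT replicate 3 and 1.69 to 2 in the other WT libraries. This library also had the lowest length slope and the most Il18. Ccl2 was 0.429 CPM in 5xFAD replicate 1, from 9 counts, and 0.197 to 0.219 in the other 5xFAD libraries. Tnf was 0.298 CPM in Dp16 replicate 3, from 6 counts, and at 0 counts in the other Dp16 libraries. The last pair rest on few counts, to which that chance rate does not apply. For Tnf the flag was fixed once all other Dp16 libraries held 0 counts.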

How the results depend on the processing

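The direction of every called member held under all alternatives run, and Ccl3 stayed called in 5xFAD against WT and on the Dp16 background under each of them. The members called, 4 in 5xFAD against WT, 3 on the Dp16 background, 5 in carriers and 3 in 5xFAD-Dp16 against WT, ranged from 3 to 4, 1 to 4, 4 to 6 and 1 to 3 when single libraries were left out (1 without Dp16 replicate 2 or 3 in the second, and 1 without WT replicate 1 in the fourth), and the count of 0 in the other comparisons stayed at 0. With only the 2 groups fitted, 2 members were called in 5xFAD against WT and 0 in 5xFAD-Dp16 against WT. Ccl4, Cxcl16 and Ccl5 lie near the threshold. Ccl5 has at most 22 counts in a library, which limits its precision.

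Differences that were not called and lie near 0 changed sign. Il18 in 5xFAD against WT was -0.00396 with RLE scaling and -0.00106 in DESeq2, and ran from -0.15 to 0.498 without single libraries. On the Dp16 background it was 0.0611 with the length slope in the fit and 0.306 without the 3 libraries of lowest slope (-0.328 to 0.0671 without single libraries). In carriers it was 0.118 and 0.411 under the same settings and 0.0426 and 0.0401 in limma-trend with pseudocounts of 0.1 and 1, also 0.0426 without a filter, with -0.158 to 0.168 for single libraries. Il1b on the Dp16 background ran from -0.0595 to 0.5 without single libraries. In 5xFAD-Dp16 against 5xFAD, Ccl5 ran from -0.407 to 0.00412 and Il1b from -0.807 to 0.215. The interaction value of Ccl4 was -0.127 and -0.465 in limma-trend with the 2 pseudocounts, -0.127 without a filter, and -0.0628 to 2.24 without single libraries. The cause was not tested.

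The background counts of called genes moved more than those of the members. In 5xFAD against WT 266 genes were called, and 424 by DESeq2, 426 without a filter, 926 with the length slope, 115 with the 2 groups alone and 167 to 290 without single libraries (fewest without WT replicate 1 or 2). On the Dp16 background the 68 became 165, 236, 212 and 44 in the same order, 41 in unfiltered limma-trend and 22 (without Dp16 replicate 2) to 127 (without WT replicate 3). In carriers the 383 became 643 without a filter, 1052 with the slope and 317 to 452. For Dp16 against WT the 1 became 14 in DESeq2, 20 without a filter, 44 with the slope, 0 with the replicate block, 0 with the 2 groups and 1 to 2. For 5xFAD-Dp16 against 5xFAD the 1 became 22, 42, 122 and 20 (2 groups), 15 without the 3 libraries and 1 to 8 (without WT replicate 3). For Dp16 carriers the 17 became 56, 111 and 180, 36 without the 3 libraries, 11 in unfiltered limma-trend and 4 (without 5xFAD-Dp16 replicate 3) to 50 (without WT replicate 3). For 5xFAD-Dp16 against WT the 88 became 214, 258, 358 and 9, 175 without the 3 libraries and 40 (without WT replicate 1) to 106. The interaction count of 0 was 3 in DESeq2 and 25 without a filter, and the sex count of 0 was 63 without a filter and 0 to 3352, the last without WT replicate 1, and the cause was not tested. Leaving out any library leaves 1 sample of that sex and genotype, which is assumed to vary like the others.

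Replicate numbers were not taken as pairs, since the labels do not say that sample numbers are shared across groups. Not every same-numbered pair of libraries correlated above 0.1 in its deviations from the group means. The range was -0.354 to 0.514 over 24 such pairs (median 0.0413) and -0.62 to 0.445 over 72 pairs of other numbers (median -0.0238), and 7 of 16 libraries correlated best with their own number. With the replicate block 4, 2 and 4 members were called in the 5xFAD comparisons against WT, against Dp16 and in carriers. The 2 groups alone and the fit without sex were not run where a comparison needs 4 groups or sex.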
